A study of Mus musculus with 6 samples.

Results

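The transcription factor p53, encoded by Trp53, and 9 of its well-known target genes were measured in Mvt1 cells sorted by the surface protein CD24. The members were Trp53, Cdkn1a, Mdm2, Ccng1, Bax, Bbc3, Sesn2, Phlda3, Gdf15 and Zmat3. They were chosen by name, with earlier results of these data known. An annotation equal to the name was found for 10 of 10, among 14762 annotations that name a gene. Reads were summed for each name in each library and compared between CD24+ and CD24- cells.

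Mvt1 is a mouse mammary carcinoma line of the FVB/N strain, which came from a mammary tumor of a mouse with Myc and Vegf transgenes under the MMTV promoter. The study stained the cells for CD24, sorted them into a CD24- and a CD24+ group, and sequenced messenger RNA from 3 plates of each group. Both groups grew as adherent cells in DMEM with 10% fetal bovine serum, and neither the labels nor the methods give either group a drug, a DNA-damaging agent or an added genetic change. No independent sorts are described, so the errors and p-values below describe how plates of a sorted group vary, and what goes with CD24 cannot be told apart from other differences between the sorted groups.

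The p53 protein is held low in unstressed cells by Mdm2, a ubiquitin ligase whose gene p53 itself switches on, and by the related protein Mdm4. After DNA damage, oncogene activity or loss of ribosomal proteins this brake is released, p53 binds its response elements and its targets stop the cell cycle, start apoptosis, or change metabolism. The amount of p53 is set mostly at the protein level, and protein was not measured here. Mammary tumors driven by Myc are a known setting of pressure on this pathway, because Myc raises the Arf protein, an inhibitor of Mdm2.

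The libraries held between 9046025 mapped reads, in CD24+ replicate 1, and 25692147, in CD24+ replicate 3. Of these reads, 71.8% to 74.3% were annotated to genes. Levels are counts per 1000000 gene reads (CPM) after TMM scaling by edgeR, whose factors ran from 0.979 to 1.01. Across genes the libraries of a group correlated at 0.989 to 0.997 on the log2 scale, against 0.915 to 0.928 between groups. Cd24a, the gene of the sorted protein, was read at 12.1, 11.5 and 6.99 CPM in the CD24- libraries and 73.3, 85.5 and 72.5 CPM in the CD24+ libraries. Its log2 fold change, CD24+ over CD24-, was 2.91 (the SE, its standard error, was 0.17; adjusted p = 5.39e-07, edgeR with Benjamini-Hochberg adjustment), so the labels and the transcript went the same way.

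Stretches of DNA that match the p53 consensus near the starts of these genes are shown first, because p53 contacts DNA through a 10-base site, called a decamer here, and a full response element holds a pair of them. RefSeq start-site windows of 300 bases, from 250 before a start to 50 after it, were at hand for 9 of the 10 members on GRCm38.p6, all except Zmat3, whose start is not analysed here. At least 1 decamer matching the p53 consensus exactly, on either strand, was found for 5 of these 9 members. Some members have several windows, and by window the matches were 5 of 13, or 38.5%, beside 8.36% of all 32851 windows. The matches are printed with 10 bases on each side, each read 5′ to 3′ on the strand of its gene, with the decamers in capitals.
Cdkn1a (chr17:29090896-29090947, plus strand): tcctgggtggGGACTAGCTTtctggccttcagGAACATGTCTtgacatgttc
Trp53 (chr11:69580274-69580303, plus strand): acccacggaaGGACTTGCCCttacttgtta
Mdm2 (chr10:117710925-117710954, minus strand): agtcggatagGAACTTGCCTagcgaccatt
Ccng1 (chr11:40755452-40755481, minus strand): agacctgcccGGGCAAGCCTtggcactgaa
Bax (chr7:45467080-45467109, minus strand): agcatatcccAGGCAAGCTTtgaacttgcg
Cdkn1a was the member with a pair of exact decamers, 12 bases apart and 73 to 42 bases before a start. The 10 bases printed directly after the later decamer differ from the consensus only at their first base. They are in small letters because only exact matches were marked, so the marked pair need not be the response element. Pairs 0 to 13 bases apart were found in 24 of all windows, 0.073%. The single decamers lay 75 to 66 bases before a start of Trp53, 186 to 177 before one of Mdm2, 185 to 176 before one of Ccng1 and 201 to 192 before one of Bax. That start of Mdm2 is the outer end of the gene, and not the internal promoter described with its exons below. A match is a string of letters and no evidence of binding, and these windows leave out response elements that lie elsewhere in a gene. Of the 5 genes printed, Mdm2 was lower in CD24+ cells, Ccng1 and Bax were higher, and Trp53 and Cdkn1a did not pass the test.

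Of the 10 members, 5 were higher in CD24+ cells, 1 was lower and 4 did not pass the threshold of 0.05 in edgeR's quasi-likelihood test. The share called was thus 60% of members, where 46.1% of the 11125 genes tested were called, 23.8% higher and 22.3% lower. The 5 that rose were Gdf15, Sesn2, Ccng1, Bax and Zmat3, the 1 that fell was Mdm2, and Trp53, Cdkn1a, Bbc3 and Phlda3 were not called. Gdf15 had enough reads to be tested only in its CD24+ libraries. The groups had no overlapping values for the same 6 members, nor for 57.3% of all genes tested. The median log2 fold change was 0.27 over the members and 0.02 over all genes, and the median absolute log2 fold change was 0.36 and 0.29. The changes ranged from a fall of Mdm2 by 0.64 on the log2 scale to a rise of Gdf15 by 3.26. In bulk RNA fewer cells of a type and less RNA per cell cannot be told apart, for these genes as for the others below.

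**Figure D1:**
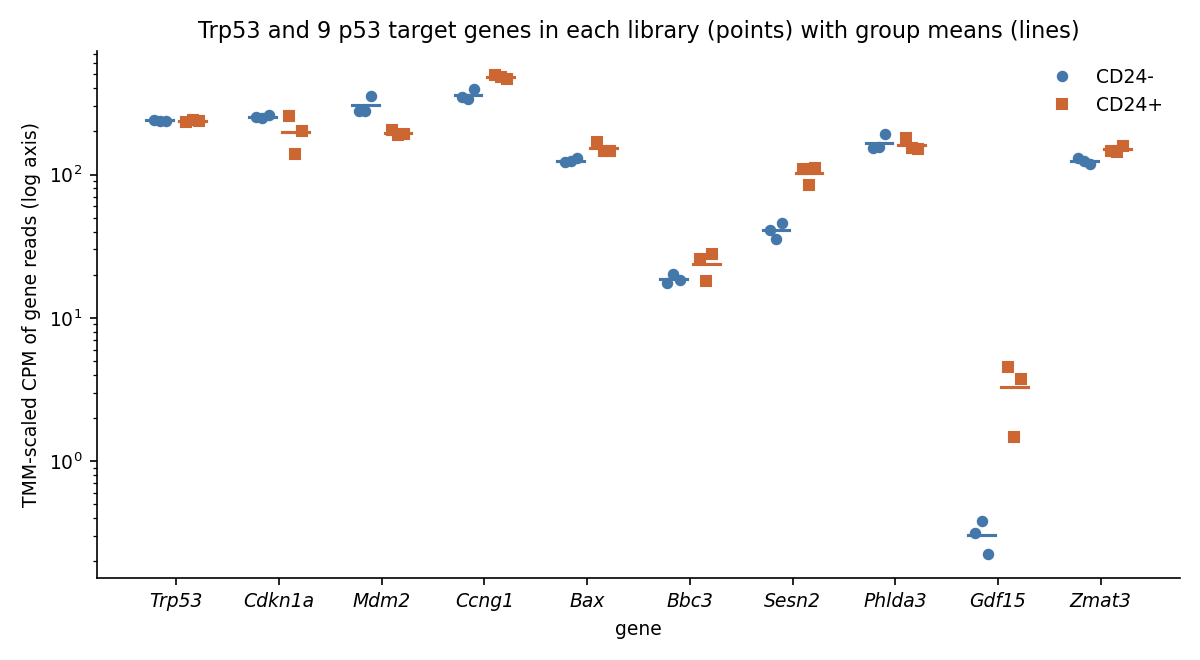
TMM-scaled CPM of gene reads (log axis) of Trp53 and 9 target genes; each point is a library, circles for CD24- and squares for CD24+, and each line is the mean of 3 libraries. Trp53 lies at 234 to 242 CPM in all 6 libraries, Sesn2 and Gdf15 are separated widely, and the CD24+ points of Cdkn1a spread from 139 to 258 CPM.

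Trp53 itself differed between the groups by less than the spread of the plates. It was read at 242, 236 and 237 CPM in CD24- replicates 1 to 3 and at 234, 240 and 235 CPM in CD24+ replicates 1 to 3. The groups overlapped and the highest library of each group was 1.03 times its lowest, the smallest such ratio among the members in either group. The log2 fold change was -0.02 with an SE of 0.07 (adjusted p = 0.871, edgeR with Benjamini-Hochberg adjustment), and its 95% interval ran from -0.17 to 0.14, so a change of the transcript beyond these bounds was not seen.

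The Trp53 reads lay at chr11:69393861-69405373 in mm9, the build of the deposited coordinates, and could be followed along the transcript base by base. This matters for a tumor line because the authors kept only reads that match the reference genome exactly, so a base change in every copy of the transcript would empty up to 47 consecutive read starts. Of the 1146 coding bases, 1124 can be reached by a read that stays within an exon, and the remaining 22 are an exon shorter than a read. All 1124 were covered by exact-match reads in each group, 100% of the reachable bases, with a median of 172 reads over a base in the 3 CD24- libraries together and 246 in the 3 CD24+ libraries. The longest run of start positions without a read, within coding exons, was 4 in each group. Some Trp53 reads also match transcripts of another GENCODE gene, among them the processed pseudogene Trp53-ps, and these made up 7.9% to 9.48% of the reads in a library. With the stretches shared with other genes set aside, 95.2% of the reachable coding bases in CD24- cells and 95.1% in CD24+ cells were still covered, with medians of 129 and 189 reads. The longest run without a read was then 43 in each group, close to the 47 above, with the start positions shared with other genes counted as empty. Exact matches show the reference sequence at these bases and cannot show whether a changed copy was transcribed beside it. Exon by exon, 4 of the 10 Trp53 exons with at least 50 reads were higher in CD24+ cells and 6 were lower, by log2 ratios from -0.10 to 0.16, and the libraries of the groups overlapped in each of them.

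**Figure D2:**
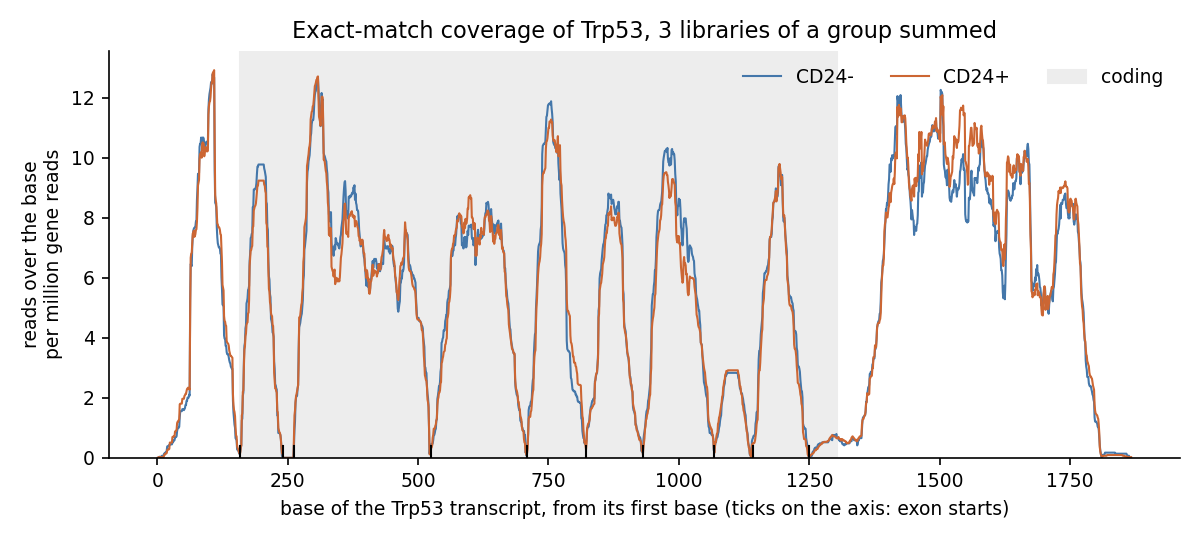
Reads over each base of the Trp53 transcript, scaled to 1000000 gene reads and numbered from its first base, with the 3 libraries of CD24- or CD24+ cells summed; the shaded band is the coding region and ticks mark exon starts. The lines of the groups follow each other along the whole transcript and dip at exon starts, where reads across a junction are missing.

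Mdm2, the ubiquitin ligase that removes p53, was the member that fell. Its reads (chr10:117125949-117147802, mm9) gave 279, 277 and 355 CPM in the CD24- libraries and 205, 188 and 192 CPM in the CD24+ libraries. The CD24- libraries were all above the CD24+ libraries, with CD24- replicate 3 the highest. The mean was 304 ± 44.4 CPM for CD24- and 195 ± 8.63 CPM for CD24+ plates (SD, n = 3 each), 1.56 times higher in CD24-. The log2 fold change was -0.64 (SE 0.10, adjusted p = 6.63e-04, edgeR with Benjamini-Hochberg adjustment).

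Mdm2 has an upstream promoter and an internal promoter in its first intron that answers to p53, so the exons of its transcript were read separately. Of the 11 exons with at least 50 reads, 11 had a lower mean in CD24+ cells, by log2 ratios from -0.80 to -0.06. The smallest ratio, -0.06, was that of the first exon, which belongs to transcripts from the upstream promoter and had 155 reads, at a mean of 2.28 CPM in CD24- and 2.20 CPM in CD24+ cells. The libraries of the groups overlapped in this exon and in 6 of the other 10, among them the exon with the ratio of -0.80. The coding exons together had a log2 ratio of -0.56 and the 3′ untranslated region one of -0.59, and neither overlapped between the groups. A difference between the first exon and the others was not tested. With the same reading by exon, Sesn2 was higher in 9 of 9 exons, by 0.96 to 1.69 on the log2 scale, and Ccng1 in 6 of 6, by 0.28 to 0.51.

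**Figure D3:**
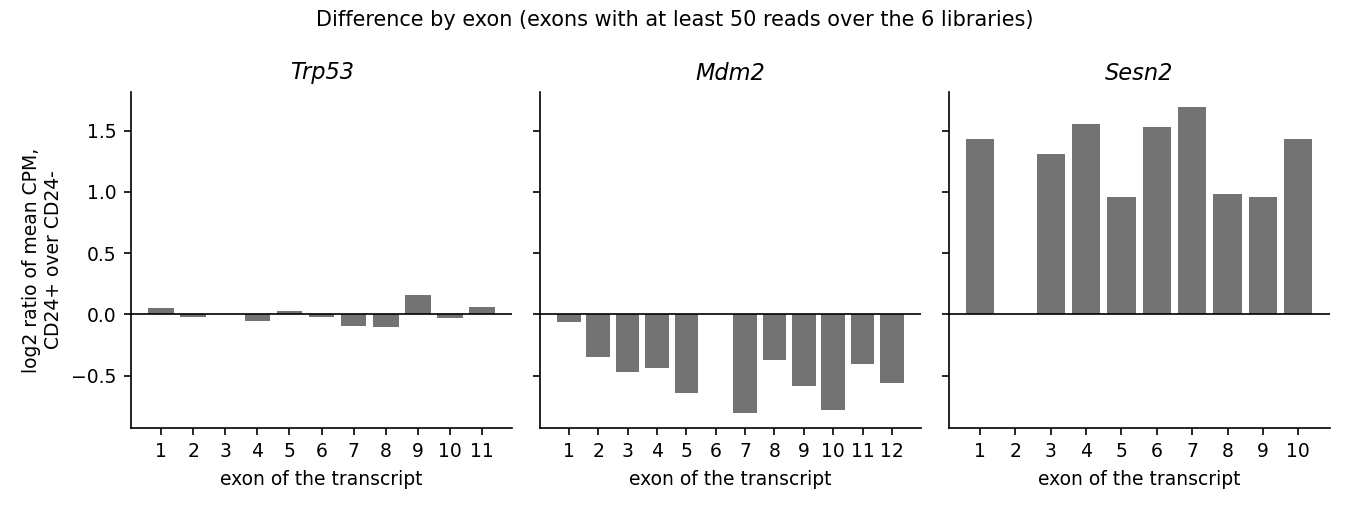
Log2 ratio of mean CPM, CD24+ over CD24-, for each exon of the Trp53, Mdm2 and Sesn2 transcripts with at least 50 reads over the 6 libraries; exons with fewer reads have no bar. Bars lie near 0 for Trp53, below 0 for all exons of Mdm2 shown (-0.80 to -0.06) and above 0 for all exons of Sesn2 shown (0.96 to 1.69).

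Ccng1 encodes cyclin G1, which brings a phosphatase to Mdm2 and so takes part in the same feedback on p53. It had the highest CPM of the members (chr11:40562053-40568786, mm9), with 349, 337 and 394 CPM in the CD24- and 498, 477 and 468 CPM in the CD24+ libraries. Every CD24+ library was above every CD24- library, and the mean was 1.34 times higher in CD24+ cells. The log2 fold change was 0.42 (SE 0.08, adjusted p = 0.00232, edgeR with Benjamini-Hochberg adjustment), opposite in sign to that of Mdm2. When each distinct read sequence was counted once instead of with its frequency, the Ccng1 value was 0.17 (adjusted p = 0.393) and no longer called. That count levels off where sequences repeat, and Ccng1 had up to 3.26 reads per distinct sequence. A library held 1616 to 2745 distinct Ccng1 sequences, where 3236 read starts exist within exons on each strand. The cause of the lost call was not tested.

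Cdkn1a encodes p21, the inhibitor of cyclin-dependent kinases through which p53 halts the cell cycle, and it was the member whose CD24+ libraries disagreed most among the genes with more than 100 CPM. Its reads (chr17:29230674-29237481, mm9) came to 254, 248 and 262 CPM in CD24- cells and to 258, 139 and 200 CPM in CD24+ cells. CD24+ replicate 1 lay within the CD24- values while replicates 2 and 3 lay below them. The coefficient of variation was 29.9% in CD24+ cells and 2.76% in CD24- cells. The log2 fold change of -0.36 (SE 0.18, 95% interval -0.76 to 0.03) did not pass the test (adjusted p = 0.115, edgeR with Benjamini-Hochberg adjustment). Without CD24+ replicate 1 it was -0.59 and called (adjusted p = 0.0115), and without CD24+ replicate 2 it was -0.17 and not called. With all libraries and the replicate number as a block it was -0.40 and called (adjusted p = 0.0377, edgeR). The call thus depended on a single library and on the model.

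Of the apoptosis genes among the members, Bax rose and Bbc3 and Phlda3 were not called. Bax, which opens the outer mitochondrial membrane, was read at 122, 125 and 130 CPM in CD24- and 169, 146 and 145 CPM in CD24+ libraries (chr7:52717018-52722254, mm9). All CD24+ libraries were above the CD24- libraries, by 1.22 times in the mean, and the log2 fold change was 0.28 (SE 0.09, adjusted p = 0.0202, edgeR with Benjamini-Hochberg adjustment). Transcripts of another GENCODE gene shared 20.6% to 22.2% of the Bax reads in a library, and on reads of a single GENCODE gene the log2 fold change was 0.28 again (adjusted p = 0.0246). The Bax call was lost without CD24- replicate 1 (adjusted p = 0.0885), without CD24- replicate 2 (0.0694) and without CD24+ replicate 1 (0.0542). It was also lost with libraries thinned to equal gene reads (0.24 on the log2 scale, adjusted p = 0.0677, edgeR) and on median coverage (0.18, adjusted p = 0.0748, limma), so that 6 of 15 alternatives lost it, distinct sequences included. On distinct sequences alone the Bax value was 0.03 on the log2 scale. Such a count has a ceiling, as Bax has 591 read starts within exons on each strand. A library held 499 to 842 distinct Bax sequences with up to 3.28 reads each. Whether the ceiling accounts for the lost call was not tested.

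Bbc3 encodes PUMA, a BH3-only protein that acts upstream of Bax. It was read at 17.5, 20.2 and 18.5 CPM in CD24- and 25.8, 18.2 and 27.8 CPM in CD24+ libraries (chr7:16894947-16903533, mm9). CD24+ replicate 2 fell among the CD24- libraries and the other CD24+ libraries above them. The log2 fold change was 0.35 (95% interval -0.02 to 0.71, adjusted p = 0.108, edgeR with Benjamini-Hochberg adjustment). It was called without CD24+ replicate 2, at 0.52 (adjusted p = 0.00872).

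Phlda3, whose product blocks the survival kinase Akt at the membrane, did not separate the groups. It was read at 153, 156 and 191 CPM in CD24- and 180, 153 and 152 CPM in CD24+ libraries (chr1:137662663-137665752, mm9). The groups covered nearly the same range, with a log2 fold change of -0.04 and a 95% interval of -0.28 to 0.19 (adjusted p = 0.755, edgeR with Benjamini-Hochberg adjustment).

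Sesn2, a stress-induced inhibitor of mTORC1 that also acts as a leucine sensor, was the clearest rise among the members with ample reads. It was read at 41.3, 35.3 and 46 CPM in CD24- and 109, 85.1 and 111 CPM in CD24+ libraries (chr4:132048675-132066416, mm9). The lowest CD24+ library was above the highest CD24- library, and the mean rose from 40.9 ± 5.33 to 102 ± 14.6 CPM (SD, n = 3 each), 2.49 times. The log2 fold change was 1.32 (SE 0.13, adjusted p = 2.1e-05, edgeR with Benjamini-Hochberg adjustment). On quantile-normalized median coverage with the authors' regularizer of 10, tested with limma, the value was 0.77 and still called.

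Gdf15, a secreted stress cytokine of the TGF-beta superfamily, showed the largest fold among the members on the fewest reads. There were 9 reads in the 3 CD24- libraries together and 127 in the 3 CD24+ libraries (chr8:73153306-73155522, mm9). The levels were 0.316, 0.379 and 0.225 CPM in CD24- and 4.56, 1.47 and 3.77 CPM in CD24+ cells, with no overlap and with CD24+ replicate 2 well under the other CD24+ libraries. Gdf15 thus passed the filter on low counts through its CD24+ libraries alone. Its place among the tested and called members rests on the group where it was higher. The ratio of the summed reads, each over the TMM-scaled gene reads of its group, was 9.46, with an exact 95% interval of 4.83 to 21.2 that covers counting error only, and edgeR's log2 fold change was 3.26 (SE 0.57, adjusted p = 9.48e-04 with Benjamini-Hochberg adjustment).

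Zmat3 encodes a zinc finger protein that binds RNA and is a steady target of p53 in many tissues. It was read at 131, 125 and 119 CPM in CD24- and 146, 143 and 159 CPM in CD24+ libraries (chr3:32233723-32264605, mm9). The groups did not overlap, but the rise was small, 1.2 times, with a log2 fold change of 0.26 (SE 0.08, adjusted p = 0.0216, edgeR with Benjamini-Hochberg adjustment). The call was lost without CD24- replicate 2 (adjusted p = 0.0711) and without CD24+ replicate 3 (0.20 on the log2 scale, adjusted p = 0.118). It was also lost with the replicate number as a block (adjusted p = 0.0602, edgeR) and on median coverage, where the value was 0.14 (adjusted p = 0.123, limma).

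**Figure D4:**
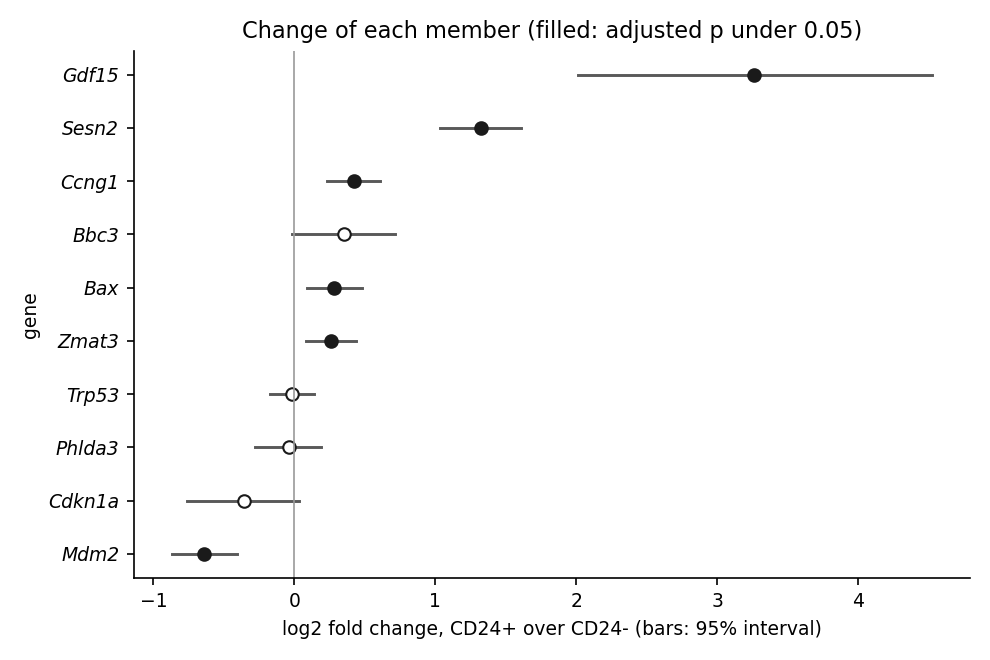
Log2 fold change, CD24+ over CD24-, of each member from edgeR with its 95% interval; filled points passed an adjusted p of 0.05 and open points did not. Mdm2 lies at -0.64, Trp53 at -0.02, and Sesn2 and Gdf15 at 1.32 and 3.26, with the widest interval, 2.01 to 4.52, for Gdf15.

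The plates did not differ in a single direction over the members. CD24+ replicate 2 was the lowest CD24+ library for Cdkn1a, Mdm2, Bbc3, Sesn2, Gdf15 and Zmat3, and it was the highest for Trp53. Over all tested genes it was the lowest CD24+ library for 35.6%. It had 24515621 mapped reads and the largest share of reads in repeats, 10.2% against 7.51% and 7.93% in the other CD24+ libraries. The part of depth or of the repeat share in these values was not tested.

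On a scale that allows genes to be compared, coding reads per 1000 possible read starts in CPM, the order of the members by their mean over all libraries was Bax, Ccng1, Trp53, Phlda3, Cdkn1a, Mdm2, Zmat3, Sesn2, Bbc3 and Gdf15. Bax had a level per length of 238 in CD24- and 305 in CD24+ cells, and Trp53 one of 166 and 162. The lowest were Bbc3, at 10.6 and 13.9, and Gdf15, at 0.311 and 3.32. Within each group, every library of Bax was above every one of Ccng1, and the same held for Ccng1 over Trp53, Mdm2 over Zmat3, Sesn2 over Bbc3 and Bbc3 over Gdf15. Zmat3 was above Sesn2 in CD24- cells only, and the remaining neighbours, from Trp53 through Phlda3 and Cdkn1a to Mdm2, overlapped in both groups. Zmat3, Sesn2, Bbc3 and Gdf15 stood below all others in every library.

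Of 21 listed regulators that act on p53, 17 could be tested, of which 1 was higher, 5 were lower and 11 were not called. The pathway lists here and below were written with earlier results of these data known. The share called was 35.3%, below the 46.1% of all genes, and the median log2 fold change was -0.19 beside 0.02. Mdm4, the inhibitor related to Mdm2, fell from 132, 127 and 107 CPM in CD24- to 34, 49.2 and 51 CPM in CD24+ libraries. The groups were far apart, and the log2 fold change was -1.42 (SE 0.14, adjusted p = 2.26e-05, edgeR with Benjamini-Hochberg adjustment), so both Mdm genes were lower in CD24+ cells. On reads of a single GENCODE gene the Mdm4 value was -1.09, and on median coverage it was -0.60, still called in both. The acetyltransferase gene Crebbp was lower by a log2 value of -0.45 and the kinase gene Hipk2 was higher by 0.55, with adjusted p of 0.0116 and 0.0031 in the same edgeR fit. The Crebbp call was lost with each distinct sequence counted once and with median coverage in place of counts.

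The gene Cdkn2a, which encodes the Mdm2 inhibitor Arf and the cell-cycle inhibitor p16, had 0 reads matching its GENCODE transcripts alone in any library, and so did its neighbour Cdkn2b and the p53 relative Trp73. With 98367174 mapped reads in the 6 libraries, a count of 0 allows a level of up to 0.0305 CPM of mapped reads. The count says nothing of the reason, since the reads can show neither a deletion nor a silent gene.

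Of 40 other established p53 targets, 38 could be tested, and 16 were higher, 8 were lower and 14 were not called. That share, 63.2%, stands beside 46.1% for all genes, and their median log2 fold change was 0.24. In the cell-cycle list Psrc1, a spindle protein gene, rose by 1.65 and Gadd45a, a damage-response gene, by 1.37, while the kinase gene Plk3 fell by 0.78 on the log2 scale. In the cell-death list the death receptor gene Fas rose by 1.63 from under 2 CPM, and Siva1 by 0.31 (adjusted p = 0.0356, edgeR). The Siva1 call was lost when any library other than CD24+ replicate 3 was left out (adjusted p of 0.0595 to 0.113, edgeR). With all libraries it was lost under DESeq2 (0.076), on reads of a single GENCODE gene (0.0915), on distinct sequences (0.261) and on median coverage (0.371), each value an adjusted p. Perp, a desmosome gene that p53 induces during apoptosis, was read at 226, 225 and 280 CPM in CD24- and 58.2, 56.9 and 51.6 CPM in CD24+ libraries, a log2 fold change of -2.14 (adjusted p = 1.96e-07, edgeR), and the death receptor gene Tnfrsf10b fell by 1.24. In the repair and metabolism list the mTORC1 inhibitor gene Ddit4 rose by 1.98 and the peptide transporter gene Tap1 by 1.46, while the glutaminase gene Gls2 fell by 1.07 from under 5 CPM and the thiamine transporter gene Slc19a2 fell by 1.06. The Gls2 call was lost without CD24- replicate 2 (-0.75, adjusted p = 0.0877, edgeR) and without CD24+ replicate 3 (-1.04, 0.0533). It was lost as well on reads of a single GENCODE gene (-0.85, adjusted p = 0.058, edgeR) and on distinct sequences (-0.83, 0.0884). Sesn1, the relative of Sesn2, was higher by 1.12 (adjusted p = 2.72e-04, edgeR) and is named because of Sesn2, after its value was seen.

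Of 12 BCL2 family genes, which set the threshold at which Bax and PUMA kill a cell, 10 could be tested, with 3 higher, 1 lower and 6 not called, a share of 40% beside 46.1% for all genes. Of the survival genes, Bcl2l1 and Bcl2 rose by 0.93 and 0.91 on the log2 scale, while Mcl1 (-0.06) and Bcl2l2 (-0.05) were not called. Of the genes that promote death, Bok, a relative of Bax, fell by 0.63 and Bad rose by 0.60. Bmf, also a gene that promotes death, had the largest value of the list, 1.30, but was not called (adjusted p = 0.0671, edgeR). It was read at 3.37, 2.65 and 0.225 CPM in CD24- and 5.03, 3.39 and 7.18 CPM in CD24+ libraries. Mcl1, Bcl2l2, Bad and Bmf were picked after their values were seen, and the list showed no single direction by function.

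Sesn2 and Gdf15 are also known as genes that the transcription factor ATF4 switches on when amino acids are short or the endoplasmic reticulum is stressed. Of 9 listed genes of that pathway, 8 could be tested, and 5 were higher, 2 were lower and 1 was not called. The share called was 87.5% and the median log2 fold change 1.57, beside 46.1% and 0.02 for all genes. The list was written with earlier results of these data known, so its share is no independent result. The listed gene not counted, Ppp1r15a, had a log2 fold change of -1.11 on reads of a single GENCODE gene. Atf4 itself was read at 186, 201 and 268 CPM in CD24- and 808, 556 and 675 CPM in CD24+ libraries, with a log2 fold change of 1.64 (adjusted p = 2.03e-05, edgeR). With each distinct sequence counted once it was 0.50 and not called (adjusted p = 0.11, edgeR), where Atf4 had 2.11 to 7.46 reads per distinct sequence in a library, and the cause of the loss was not tested. It is named because it heads the pathway, after its value was seen. Chac1 rose by 3.75 and Trib3 by 3.14, while Atf3 fell by 2.37 and the kinase gene Eif2ak3 by 0.28. On median coverage Chac1 was 1.5, Trib3 1.91 and Atf3 -0.48. The Eif2ak3 call was lost when any library other than CD24- replicate 3 was left out, on distinct sequences and on median coverage. CD24+ replicate 2 was the lowest CD24+ library for 6 of the 8 tested genes of the list, all but Eif2ak3 and, named after its values were seen, Eif2ak4, which were lowest in CD24+ replicate 1. It was the lowest for 6 of the 10 members and for 35.6% of all genes. A link of Sesn2 and Gdf15 to the pathway was not tested. The TGATGNAA motif, a core of the elements that ATF4 binds together with C/EBP proteins, was searched on both strands. It was found in 0 of the 13 start-site windows of the 9 members that have one, and in 3.97% of all windows. At that share 13 windows are too few for a count of 0 to say anything about ATF4 sites. CACGTG, the E-box that Myc binds, was found in 4 of the 13, those of Bax, Bbc3, Gdf15 and Trp53, and in 7.15% of all windows. The same 13 windows are few for this motif as well, and a match is no evidence of binding.

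**Figure D5:**
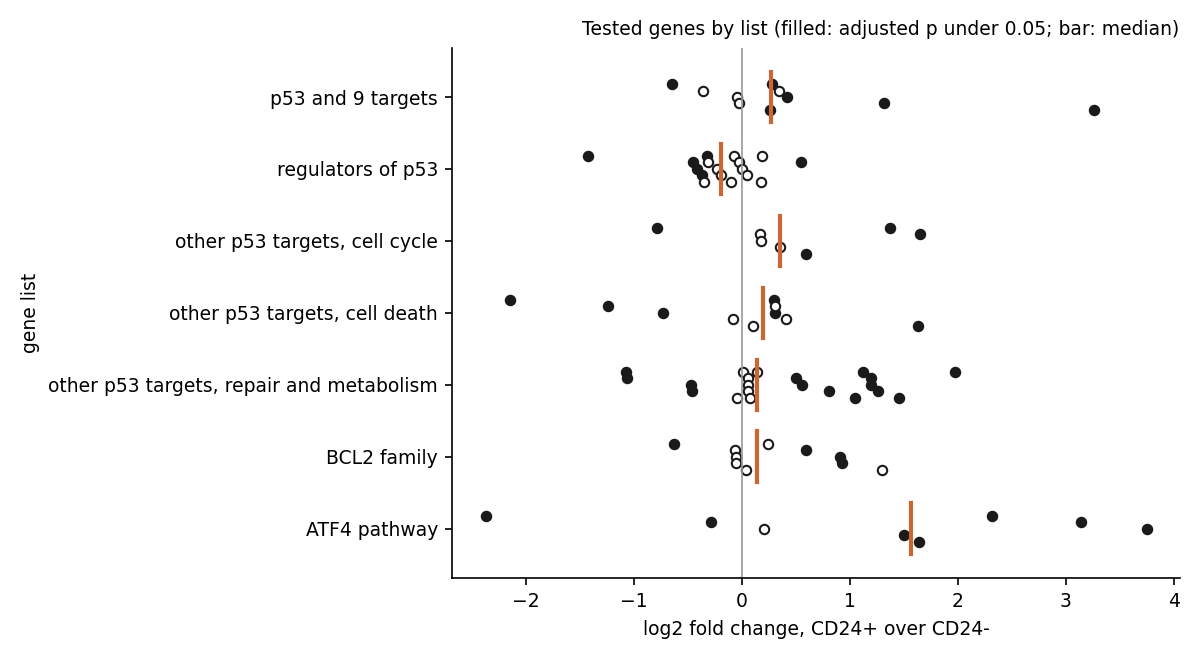
Log2 fold change, CD24+ over CD24-, of each tested gene in 7 gene lists; filled points passed an adjusted p of 0.05, open points did not, and the bar is the median of the list. The medians are 0.27 for p53 and its 9 targets, -0.19 for regulators of p53 and 1.57 for the ATF4 pathway, and every p53 target list has called genes on each side of 0.

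Markers of cell type differed between the groups as well. The summed level of 8 epithelial markers was 1850 to 2040 CPM in CD24- and 759 to 902 CPM in CD24+ libraries, nearly all of it Krt8 and Krt18, while the epithelial adhesion genes Cdh1 and Epcam had 2 and 6 reads over all libraries. The sum of 5 fibroblast markers was 9.13 to 16 CPM in CD24- and 64.8 to 97.8 CPM in CD24+ libraries, most of the latter Pdgfrb, with Col1a1, Col1a2 and Dcn under 5 CPM in every library. The sum of 4 leukocyte markers was 46.7 to 80.6 and 6.94 to 9.6 CPM, most of it Cd68, with 2 reads of the defining gene Ptprc. The 4 endothelial markers summed to 2.25 to 3.98 and 0.681 to 1.89 CPM. The part of cell composition in the changes of Mdm2, Sesn2, Perp and the other genes above was not tested.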

How the data were processed

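The authors trimmed 51-bp single-end TruSeq reads to 47 nt, collapsed identical reads, kept exact matches to the mouse genome (mm9 in the submitters' processing notes) and gave each sequence 1 location and 1 annotation. They deposited the count of each sequence in each library, neither normalized nor pooled. Neither the mapping software nor where the annotation came from is stated in the sources used here. Reads across most exon junctions are missing, and the library kit keeps no strand: 48.0% to 53.7% of a member's reads were on the plus strand, so overlapping genes cannot be separated.

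Counts were summed per gene name. Of 16024 annotations, 14762 named a gene, and reads in repeats (7.51% to 10.2% of a library) or with no annotation (16.9% to 20.2%) stayed out of library sizes and tests. Chi-square over its degrees of freedom between libraries of a group was 1.71 or more, so none matched another within counting noise. Each counted as a replicate because the study gives a plate for each. Genes passing filterByExpr were tested with edgeR 4.0.16 in R 4.3.3 (quasi-likelihood F test on TMM-scaled counts, with Benjamini-Hochberg adjusted p over all genes and a threshold of 0.05). The fit was checked first on simulated counts, whose changed genes differed by more than every member but Gdf15. That check does not cover calls of small changes. The standard error is the absolute log2 fold change over the square root of F. An exact permutation test of 3 against 3 libraries cannot give a p under 0.1 and was not used. The exact 95% interval and the limit for a count of 0 (3 counts) cover counting error only.

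Exons, coding regions and shared 47-mers came from 1 transcript per member of GENCODE M21 (GRCm38), matched by sequence, and start-site windows from RefSeq. The alternatives were DESeq2 1.42.0, no TMM, other filters, distinct sequences, the replicate block, thinning to equal gene reads, reads of 1 GENCODE gene, median coverage with quantile normalization (limma 3.58.1), and each library left out. The members and lists were chosen with earlier results of these data known. Named genes were all members, Cd24a, Mdm4, Cdkn2a and, in each other pathway list, the called genes with the 2 largest increases and decreases. Genes outside this rule are said to be, apart from the markers and relatives of Cdkn2a and Trp53 given by their reads.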

Additional observations from a re-analysis of the deposited data

How the results depend on the processing

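The number of members called was 6 in the reported fit, 6 with DESeq2, without TMM, without a filter on low counts, on reads of 1 GENCODE gene and with the minimum of 1 CPM, which kept the same 11125 genes. The share of all genes called was 46.1% in the reported fit and with that minimum. It was 39.7% with DESeq2, 46.4% without TMM, 37.2% without a filter and 45.6% on reads of 1 GENCODE gene. Members called came to 5 with libraries thinned to equal gene reads and to 4 with each distinct sequence counted once. They came to 3 of 9 tested with quantile-normalized median coverage, where Gdf15 was too low to test. The share of all genes called fell as well in these last settings, from 46.1% to 40.7%, 33.4% and 27%. Leaving out 1 library gave 4 to 7 members called. In all, 4069 to 5357 genes were then called, against 5130, a share of 36.1% to 47.4%. Over 149 values of the members under these alternatives, 135 stayed on the same side of the threshold, 11 were no longer called, 3 were newly called and 0 called values turned direction. This count and that of the other listed genes below include the minimum of 1 CPM. That setting repeated the reported fit and could not differ from it. Counting distinct sequences levels off for genes with many reads, by its construction. Over all alternatives together, the 11 losses fell on Bax, Zmat3 and Ccng1. The calls of Mdm2 (-0.70 to -0.51), Sesn2 (0.77 to 1.43) and Gdf15 (3.03 to 3.66) stayed in each alternative that could test them. With the replicate number as a block, 6 members and 4493 genes were called, 40.4% of all genes. Zmat3 was then lost (adjusted p = 0.0602, edgeR), as were Siva1 (0.0724) and Eif2ak3 (0.0737), and Cdkn1a was called at -0.40 (adjusted p = 0.0377, edgeR). Same-numbered plates did not vary together (correlations of 0.0137, -0.283 and -0.33). With 3 libraries of unequal depth in a group, this check cannot exclude that the numbers pair plates. How far the construction of each setting, distinct sequences included, accounts for the changes in calls was not tested. Of the other listed genes, 1035 of 1104 values were kept, 42 calls were lost, 27 were gained and 0 turned direction. Among the named genes, median coverage also shrank Cd24a (1.37), Mdm4 (-0.60), Psrc1 (0.76), Gadd45a (0.50), Sesn1 (0.45), Tap1 (0.35) and Bcl2 (0.24), and distinct sequences shrank Ddit4 (1.20), Perp (-1.47) and Trib3 (2.47). Among the members Gdf15 had the fewest reads, with 9 in CD24- cells, and it passed the filter through its CD24+ libraries alone.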

Other observations

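Atr and Ppp1r15a were listed as a regulator of p53 and a gene of the ATF4 pathway but matched no annotation name, so they were read from sequences that match their GENCODE transcripts alone. Atr, the kinase that answers stalled replication forks, had a log2 fold change of 0.05 (adjusted p = 0.79, edgeR). Ppp1r15a, which lifts the block on translation set by stress kinases and is switched on downstream of ATF4, fell by 1.11 on the log2 scale (adjusted p = 2.38e-05, edgeR), while Chac1 and Trib3 of the same pathway rose by 3.75 and 3.14. Atf3, which fell by 2.37, and Ppp1r15a thus differed in sign from the 5 listed genes of that pathway that were called higher. Eif2ak3 fell as well, by 0.28, but its call was lost under the alternatives named above.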
